A study of Mus musculus with 12 samples.

Results

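Ribosome biogenesis was followed through 40 genes, of the 54446 gene identifiers counted, in CD11b+ myeloid cells isolated from MC38 tumors, with and without irradiation (IR). The 40 were chosen by function, as RNA polymerase I components, small nucleolar ribonucleoprotein (snoRNP) proteins, nucleolar scaffold proteins and assembly factors of both ribosomal subunits, together with Myc. The list was assembled with earlier results of the same libraries known, so its direction of change is not independent evidence, and no test over the list is given. Each gene was tested in a fit of all genes, and all 40 were matched by symbol and passed the filter on low counts in every comparison. Their lowest count in any library was 116, for Noc3l in an irradiated IP.

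All mice were WT, which in this study means Ythdf2 fl/fl without Cre, and carried tumors of MC38, a mouse colon carcinoma line. Ctrl tumors were not irradiated, and IR tumors had received 1 dose of 20 Gy 3 days before the cells were collected. From each pool of cells, 1 library was made from the lysate (Input, which measures transcript abundance) and 1 from the RNA recovered with an antibody to the m6A reader YTHDF2 (IP), with 3 pools per condition and 12 libraries in all. The pools are described as technical replicates, so p-values measure the spread between pools. The study's methods and the sample labels differ in the antibody supplier they name and in whether mRNA was purified first.

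Ribosome production starts in the nucleolus, where RNA polymerase I (Pol I) transcribes the precursor of the large rRNAs. Box C/D snoRNPs guide methylation of that precursor and box H/ACA snoRNPs guide its pseudouridylation, while processome and assembly factors cut and fold it around ribosomal proteins. Many genes of this machinery are known targets of the transcription factor Myc, and the machinery is generally more active in growing and dividing cells. YTHDF2 binds m6A-modified mRNAs in the cytoplasm and is known to promote their decay.

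Reads counted on genes numbered 34445784 to 42382532 in the Inputs and 27852948 to 33882664 in the IPs. The 8 myeloid markers, among them Itgam (CD11b), summed to 4445 to 4544 CPM, counts scaled to a common library size, in Ctrl Inputs and 5455 to 5476 in those of IR. The T cell markers summed to under 3 CPM in every library, and markers of tumor epithelium summed to 119 to 127 CPM in Ctrl Inputs and 90.8 to 96.8 in those of IR, with 3 of the 5 under 1 CPM in both groups. Levels are CPM on one scale for all 12 libraries, whereas each comparison was fitted on its own libraries, so a small fold change can differ slightly from the ratio of the levels.

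In the Inputs, most ribosome biogenesis transcripts were less abundant after IR. The 40 genes together made up 0.434% ± 0.010 (SD, n = 3) of all counts in Ctrl and 0.340% ± 0.0032 after IR. Of the 40, 32 fell and 3 rose (edgeR quasi-likelihood test, adjusted p under 0.05), whereas 23.9% of the 16914 genes tested fell and 21.0% rose. The median log2 fold change was -0.50, beside 0.0072 over all genes tested. All 9 processome genes fell, as did 10 of the 13 large-subunit factors, 5 of the 7 snoRNP genes, 4 of the 6 Pol I genes and 3 of the 4 nucleolar scaffold genes.

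Myc, the transcription factor placed at the head of the list, stood at 42.9, 44.7 and 43.5 CPM in the Ctrl Inputs and at 22.1, 19.8 and 21.3 CPM in those of IR. The groups did not overlap, and Myc mRNA was 2.19-fold lower after IR (log2 fold change -1.13 ± 0.063 (SE), adjusted p = 4.95e-14). Values with an SE in parentheses are log2 fold changes of the comparison described, from edgeR. Per kilobase of exon and as the mean of the Ctrl and IR Inputs, Myc stood at 11.9 CPM, below the most abundant gene of every other role.

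Among the snoRNP genes, the largest fall was that of Dkc1 (dyskerin), the pseudouridine synthase of the box H/ACA particles. It was counted at 95.3, 96.1 and 93.7 CPM in the Ctrl Inputs and at 45.3, 45.9 and 45.9 CPM in those of IR (-1.14 ± 0.044 (SE), adjusted p = 2.40e-17). Nolc1, a nucleolar phosphoprotein that associates with both snoRNP classes, went from 146, 135 and 137 CPM to 79.3, 74.5 and 76.03 CPM (-0.94 ± 0.042 (SE), adjusted p = 5.02e-16). In both genes every irradiated pool was below every unirradiated one. Nop56 and Nop58, the paired core proteins of the box C/D particles, fell as well. Nop56 was at 261, 242 and 251 CPM in Ctrl and 168, 163 and 172 CPM in IR (-0.66 ± 0.036 (SE), adjusted p = 4.10e-14), and Nop58 at 155, 144 and 140.1 and 95.1, 84.6 and 91.8 CPM (-0.77 ± 0.046 (SE), adjusted p = 1.99e-13). Again the groups did not overlap. Fibrillarin (Fbl), the methyltransferase of the same particles, had a log2 fold change of 0.055 (adjusted p = 0.257) and did not pass the test.

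Nhp2, an H/ACA core protein and the most abundant snoRNP transcript per length at 135 CPM per kilobase over all Inputs, stayed close to its level. It was counted at 143, 153 and 158 CPM in Ctrl and 147, 166 and 159 CPM in IR, and did not pass the test (-0.026 ± 0.042 (SE), adjusted p = 0.658). Gar1, the remaining H/ACA protein of the list, fell (-0.61 ± 0.081 (SE), adjusted p = 6.66e-07). The plot of IR changes by gene shows these differences within each role.

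**Figure D1:**
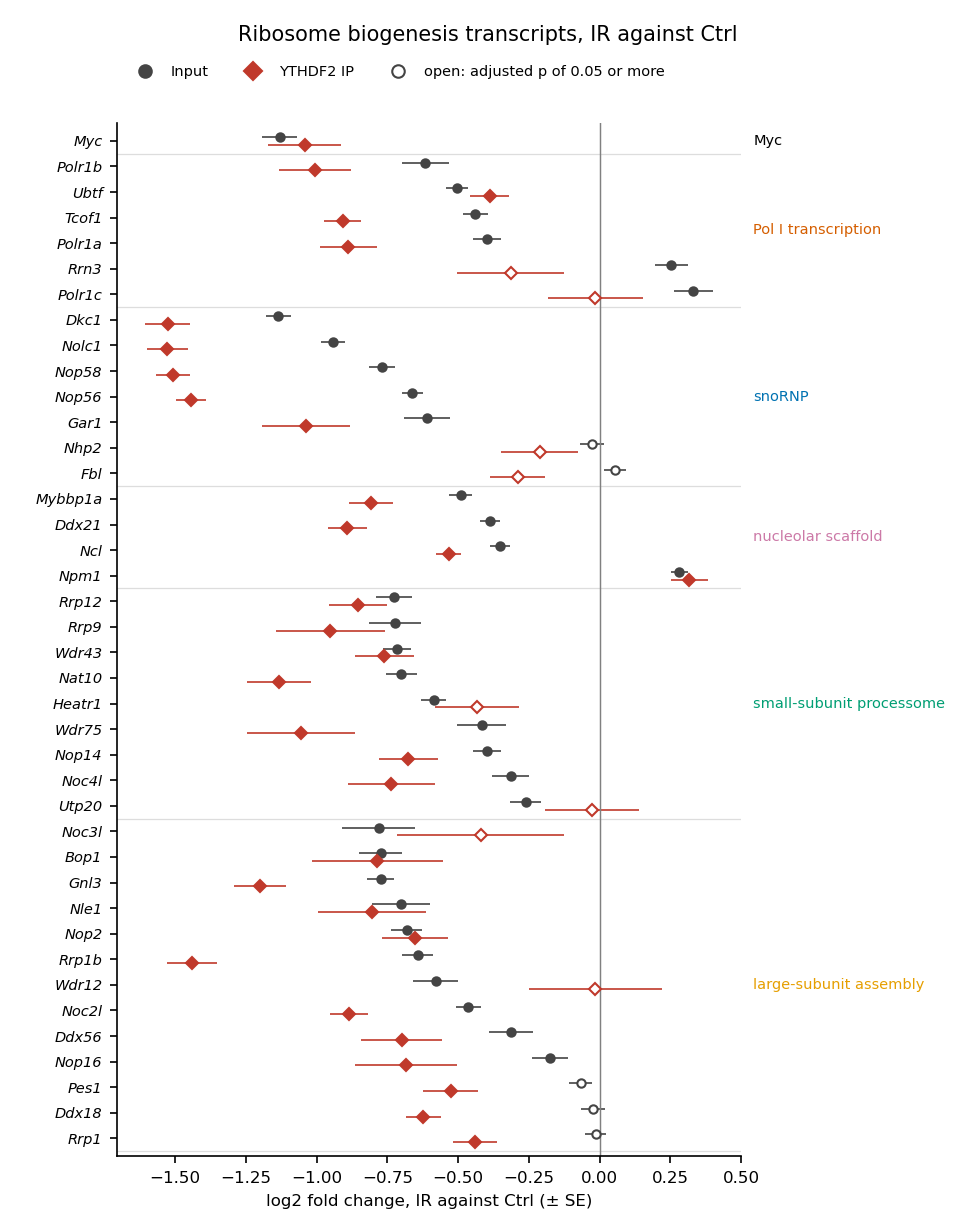
Log2 fold change of IR against Ctrl (x axis, ± SE) in the Input and in the IP for each of the 40 genes (y axis), ordered and coloured by role, with 3 libraries per group. In the Input 36 of the 40 values lie below 0 and in the IP 39 do, Npm1 being the gene above 0 in both.

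In the Input 3 transcripts rose, by little. Nucleophosmin (Npm1), a nucleolar chaperone and the most abundant scaffold transcript at 181 CPM per kilobase over all Inputs, was at 432, 412 and 424 CPM in Ctrl and 543, 540.5 and 545 CPM in IR. Every IR library was above every Ctrl library, a 1.22-fold rise (0.28 ± 0.030 (SE), adjusted p = 1.33e-08). Polr1c, a subunit shared by Pol I and Pol III, went from 25.4, 24.5 and 25.2 to 30.6, 35.6 and 33.8 CPM (0.33 ± 0.068 (SE), adjusted p = 2.15e-04). Rrn3, the factor that recruits Pol I to the rDNA promoter, went from 29.5, 29.1 and 29.96 to 37.4, 37.95 and 36.3 CPM (0.25 ± 0.059 (SE), adjusted p = 8.52e-04). Neither pair of groups overlapped. Npm1 has processed pseudogenes to which part of its reads could be assigned, so its level is less certain than its neighbours'.

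The other Pol I genes fell. Polr1b, the subunit next in size to the largest, was at 20.7, 19.2 and 21.7 CPM in Ctrl and 13.6, 14.4 and 14.5 CPM in IR (-0.62 ± 0.083 (SE), adjusted p = 7.61e-07). Tcof1 (treacle), a nucleolar protein that works with Pol I and, at 29.6 CPM per kilobase, the most abundant of these genes over all Inputs, was at 188, 167 and 169.6 and 143, 128 and 138 CPM (-0.44 ± 0.045 (SE), adjusted p = 8.29e-09). Neither gene had overlapping groups. The largest subunit Polr1a and the rDNA-binding factor Ubtf had log2 fold changes of -0.40 and -0.51, and both fell.

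Every small-subunit processome gene fell in the Input, with log2 fold changes from -0.73 for Rrp12, an export factor of the small subunit, to -0.26 for Utp20. Nop14, the most abundant of them at 26.3 CPM per kilobase over all Inputs, was at 85.9, 76.5 and 76.7 CPM in Ctrl and 66.2, 62.8 and 62.5 CPM in IR. Its groups did not overlap (-0.40 ± 0.050 (SE), adjusted p = 2.23e-07). Rrp9, Wdr43 and the acetyltransferase Nat10 fell by 0.72, 0.72 and 0.70 on the log2 scale.

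On the large-subunit side, Noc3l, Gnl3 and Bop1 had the largest falls, and Ddx18, Rrp1 and Pes1 did not pass the test. Bop1, which forms a complex with Pes1 and Wdr12, was at 31.7, 30.8 and 30.5 CPM in Ctrl and 20.96, 19.6 and 16.9 CPM in IR (-0.77 ± 0.077 (SE), adjusted p = 3.91e-09). Its partner Pes1 had a log2 fold change of -0.067 (adjusted p = 0.198). Noc2l, the most abundant large-subunit transcript at 64.1 CPM per kilobase over all Inputs, was at 224, 206 and 195 and 168, 152 and 157 CPM, with no overlap (-0.46 ± 0.045 (SE), adjusted p = 2.79e-09). The exons of Noc2l share 598 bases with Samd11 on the opposite strand, and the strand setting of the counting is not given in the sources used here. The RNA helicase Ddx18 was at 102, 93.6 and 95.5 and 102, 98.9 and 100.5 CPM (-0.024 ± 0.042 (SE), adjusted p = 0.686). Rrp1b, a nucleolar protein of large-subunit processing, fell from 58.3, 53.4 and 53.8 to 36.9, 36.04 and 39.01 CPM without overlap (-0.64 ± 0.055 (SE), adjusted p = 2.48e-10).

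In these bulk libraries, fewer cells of a type and less RNA per cell cannot be told apart. Of 10 proliferation markers 8 fell in the Input, beside 23.9% of all genes tested. Their median log2 fold change was -0.45, with Mki67 at -1.01. Their sum went from 1659 to 1680 CPM in Ctrl to 1251 to 1252 CPM in IR, with no marker at 0 in either group. Over the same comparison the sum of 6 neutrophil markers went from 5749 to 6479 CPM to 8100 to 8843 CPM. Of the 6, 4 were higher, beside 21.0% of all genes tested. Of the 8 myeloid markers 4 were higher and 3 lower. The part of these markers, and of the tumor epithelium markers, in the ribosome biogenesis result was not tested.

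**Figure D2:**
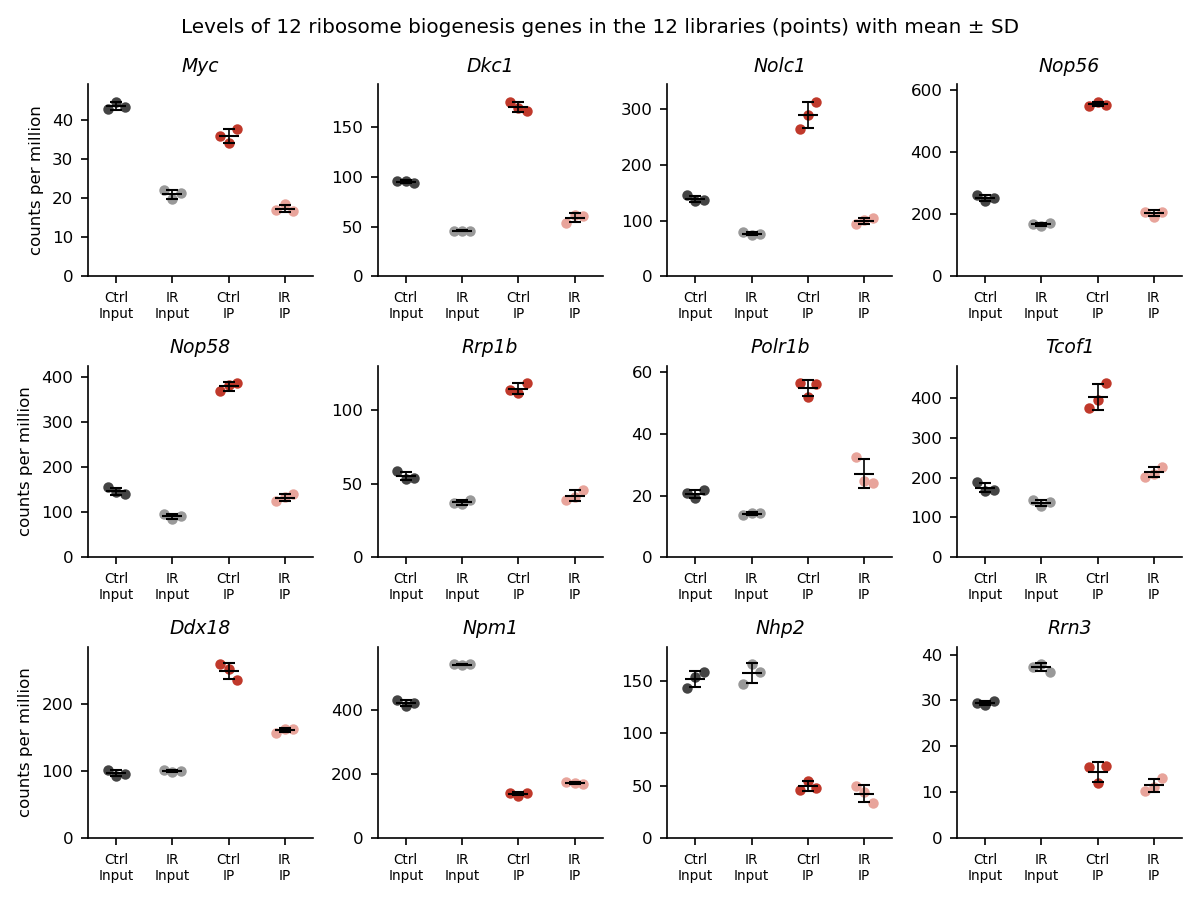
CPM (y axis, from 0) of 12 of the 40 genes in the Ctrl Input, IR Input, Ctrl IP and IR IP libraries (x axis), each point 1 library, with the mean ± SD of 3. Dkc1, Nolc1 and Myc are lower in every IR Input than in every Ctrl Input, while Npm1 is higher.

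The promoters of the genes were read for the Myc E-box CACGTG, which is the same on both strands. RefSeq windows of 250 bases before to 50 after the start site (GRCm38.p6) were at hand for 34 of the 40 genes. CACGTG was in 7 of them (20.6%), beside 8.09% of the 27025 genes with a window. Those 27025 were not limited to genes that passed the filter on low counts, which all 40 did. The 7 were Nop2, Utp20, Pes1, Mybbp1a, Nle1, Rrn3 and Wdr43. Counted over windows, the shares were 16.3% of 43 and 7.15% of 32851. A match is a description of the letters and does not show that Myc binds there. The windows of Nop2 (chr6:125131633-125131932, plus strand) and Wdr43 (chr17:71615965-71616264, plus strand) are printed as examples of genes that fell in the Input with the E-box, in capitals, 60 bases before and 17 bases after the start. The window of Rrn3 (chr16:13780449-13780748, plus strand), which rose, holds it 215 and 48 bases before the start. The windows of Nop56 (chr2:130274162-130274461, plus strand) and Dkc1 (chrX:75095604-75095903, plus strand) are shown because these genes fell without the motif in the window.
Nop2: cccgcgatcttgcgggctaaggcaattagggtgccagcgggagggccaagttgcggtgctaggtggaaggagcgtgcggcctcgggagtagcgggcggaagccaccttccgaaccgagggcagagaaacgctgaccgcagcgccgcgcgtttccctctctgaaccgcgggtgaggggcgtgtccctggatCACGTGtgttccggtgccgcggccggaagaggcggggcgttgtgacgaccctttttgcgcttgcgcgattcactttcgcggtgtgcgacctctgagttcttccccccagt
Wdr43: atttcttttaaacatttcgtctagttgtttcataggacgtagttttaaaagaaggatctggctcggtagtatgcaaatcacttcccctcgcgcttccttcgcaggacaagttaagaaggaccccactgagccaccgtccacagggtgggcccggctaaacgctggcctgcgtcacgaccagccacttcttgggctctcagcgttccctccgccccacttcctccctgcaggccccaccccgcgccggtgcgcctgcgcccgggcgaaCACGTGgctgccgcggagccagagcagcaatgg
Rrn3: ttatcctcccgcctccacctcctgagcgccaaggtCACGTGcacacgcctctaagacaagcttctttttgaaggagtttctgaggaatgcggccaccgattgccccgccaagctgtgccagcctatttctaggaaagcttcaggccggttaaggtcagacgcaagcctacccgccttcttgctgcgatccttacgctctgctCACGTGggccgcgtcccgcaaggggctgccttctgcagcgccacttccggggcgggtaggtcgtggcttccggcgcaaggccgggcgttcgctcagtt
Nop56: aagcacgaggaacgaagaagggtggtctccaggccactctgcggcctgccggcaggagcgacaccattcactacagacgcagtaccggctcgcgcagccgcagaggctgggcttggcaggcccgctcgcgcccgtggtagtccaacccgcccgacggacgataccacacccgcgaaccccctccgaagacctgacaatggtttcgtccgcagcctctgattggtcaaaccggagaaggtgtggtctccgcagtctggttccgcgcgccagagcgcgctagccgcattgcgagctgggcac
Dkc1: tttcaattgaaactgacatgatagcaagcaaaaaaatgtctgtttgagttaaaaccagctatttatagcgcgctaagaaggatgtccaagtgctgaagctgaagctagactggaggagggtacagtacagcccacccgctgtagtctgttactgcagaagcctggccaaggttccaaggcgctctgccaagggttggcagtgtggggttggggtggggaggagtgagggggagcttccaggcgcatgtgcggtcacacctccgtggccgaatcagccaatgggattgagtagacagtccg

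Of the 7 genes with the motif in the window, 5 fell in the Input, a share near that of the 32 among all 40, while Rrn3 rose and Pes1 did not pass the test. The log2 fold changes of the 5 were -0.68 for Nop2, an rRNA methyltransferase of the large subunit, -0.72 for Wdr43, -0.70 for Nle1, -0.49 for Mybbp1a and -0.26 for Utp20. The printed windows include a rise with 2 copies of the motif and a large fall, that of Dkc1, with none.

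In Ctrl, the ribosome biogenesis transcripts were divided between those enriched and those depleted in the YTHDF2 IP. Of the 40 genes, 20 were higher in the IP than in the Input and 15 were lower, whereas 34.1% of the 17416 genes tested were higher and 34.6% lower. The median log2 IP/Input was 0.18, beside 0.018 over all genes tested. With library size alone the median of the 40 was -0.0061, and with all 12 libraries in one fit or with no filter it stood at -0.0132 and -0.428 relative to the median of all genes. Large-subunit genes gave 7 higher and 4 lower of 13, snoRNP genes 4 and 2 of 7, Pol I genes 4 and 1 of 6, scaffold genes 2 and 1 of 4, and processome genes 3 and 6 of 9.

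The highest IP/Input in Ctrl was that of Polr1b, with 56.4, 51.8 and 56.2 CPM in the Ctrl IPs against 20.7, 19.2 and 21.7 in the Inputs (1.49 ± 0.080 (SE), adjusted p = 1.82e-11). Nop58 was at 367, 382 and 386 CPM in the Ctrl IPs, 2.73-fold over its Input (1.45 ± 0.047 (SE), adjusted p = 1.76e-14). Ddx18 was at 259.8, 253 and 236 CPM, 2.71-fold over its Input (1.44 ± 0.052 (SE), adjusted p = 6.80e-14). For all 3 genes the IP libraries lay above all Input libraries. Tcof1, Nop56, Nolc1, Rrp1b and Polr1a followed, at log2 IP/Input of 1.28, 1.22, 1.13, 1.13 and 0.99.

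At the other end stood the short and abundant Nhp2 and Npm1. Nhp2 was at 45.7, 55 and 47.9 CPM in the Ctrl IPs against 143, 153 and 158 in the Inputs, 2.90-fold lower (-1.53 ± 0.068 (SE), adjusted p = 1.14e-12). Npm1 was at 141, 133 and 143 against 432, 412 and 424 CPM (-1.53 ± 0.043 (SE), adjusted p = 2.28e-15). Bop1 was at 12.6, 12.1 and 12.1 against 31.7, 30.8 and 30.5 CPM (-1.26 ± 0.096 (SE), adjusted p = 2.35e-09). No IP library of these 3 genes reached its lowest Input. Wdr12 (-1.26), Rrn3 (-0.96) and Noc3l (-0.92) were also depleted.

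Some partners in a complex differed in direction. Nop56 and Nop58 were enriched and their partner Fbl was depleted (-0.49 ± 0.064 (SE), adjusted p = 2.86e-06). Dkc1 was enriched (0.91 ± 0.047 (SE), adjusted p = 1.11e-11) while Nhp2 was depleted and Gar1 did not pass the test. Bop1 and Wdr12 were depleted. Their partner Pes1 was enriched by little (0.20 ± 0.062 (SE), adjusted p = 0.00788), with groups that overlapped, and lost the call with library size alone (0.017). Of the scaffold proteins, nucleolin (Ncl) was enriched (0.50 ± 0.041 (SE), adjusted p = 5.73e-09) and Npm1 depleted. Myc itself was lower in the IP, at 36.01, 34.2 and 37.7 CPM against 42.9, 44.7 and 43.5 in the Input (-0.21 ± 0.074 (SE), adjusted p = 0.0194). The call of Myc held in 9 of the 12 settings of the analysis, counting the main one.

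**Figure D3:**
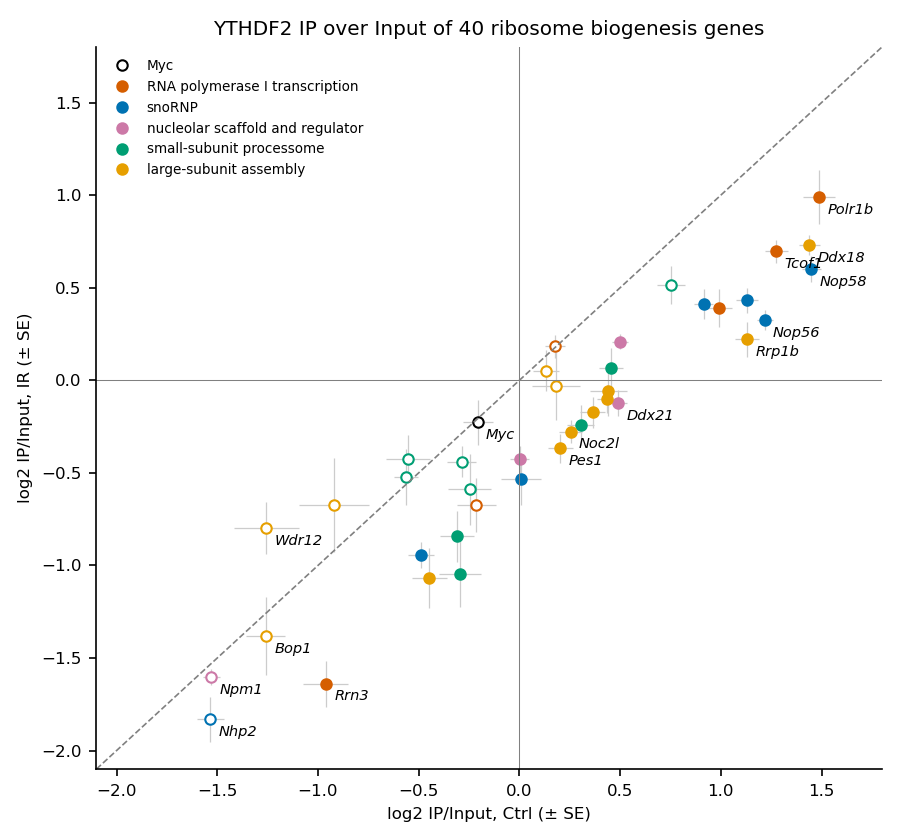
Log2 IP/Input in IR (y axis, ± SE) against log2 IP/Input in Ctrl (x axis, ± SE) of the 40 genes, coloured by role, from 3 IP and 3 Input libraries per condition. Polr1b, Nop58 and Ddx18 are farthest to the right and Nhp2 and Npm1 farthest to the left, and most genes lie below the diagonal. The interaction, from a separate fit of all 12 libraries, was negative for 34 of the 40 genes.

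After IR, fewer of these genes were enriched than in Ctrl and more were depleted. In the IR libraries, 11 of the 40 were higher in the IP than in the Input, a share near the 32.1% of the 18650 genes tested. Another 19 were lower, beside 30.5%. The median log2 IP/Input was -0.23, beside 0.10 over all genes tested. Replicate pairs varied more in the IR IPs, at 17.2 to 21.5 times counting noise over all genes, than in the Ctrl IPs, at 8.83 to 9.96 times. The part of this spread in the number of calls was not tested. All 11 had also been higher in Ctrl. The 11 of 40 that were higher in both conditions are a share near the 23.3% of the 16757 genes tested in both. Another 14 of the 40 were lower in both, beside 28.1%. Pes1 and Noc2l were higher in Ctrl and lower in IR, but both lost a call under some settings, Pes1 being called in 9 of 12 in Ctrl and 10 of 12 in IR, and Noc2l in 11 and 9.

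Polr1b kept the highest IP/Input, at 32.5, 24.8 and 24.02 CPM in the IR IPs against 13.6, 14.4 and 14.5 in the IR Inputs (0.99 ± 0.14 (SE), adjusted p = 1.35e-04). Ddx18 was at 157, 163 and 163 against 102, 98.9 and 100.5 CPM (0.73 ± 0.053 (SE), adjusted p = 4.72e-07), and Tcof1 at 203, 209 and 227 against 143, 128 and 138 CPM (0.70 ± 0.063 (SE), adjusted p = 2.80e-06). Each of these IP libraries was above each Input. Lowest were Nhp2, at 49.9, 44.01 and 33.5 against 147, 166 and 159 CPM (-1.83 ± 0.12 (SE), adjusted p = 2.28e-07), Rrn3, at 10.4, 11.2 and 13.03 against 37.4, 37.95 and 36.3 CPM (-1.64 ± 0.12 (SE), adjusted p = 6.14e-07), and Npm1, at 175, 172 and 169.7 against 543, 540.5 and 545 CPM (-1.60 ± 0.041 (SE), adjusted p = 1.16e-10). Here each IP library was below each Input. Myc had a log2 IP/Input of -0.23 and did not pass the test (adjusted p = 0.130).

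The difference in IP/Input between IR and Ctrl was tested itself, as an interaction over all 12 libraries. It was negative and past the threshold for 25 of the 40 genes and positive for none, whereas 13.9% of the 20720 genes tested were lower and 6.28% higher. The median was -0.48, beside -0.083 over all genes tested. The genes that fell were 6 of the 7 snoRNP genes, 4 of the 6 Pol I genes, 3 of the 4 scaffold genes, 8 of the 13 large-subunit genes and 4 of the 9 processome genes. How many passed depended on the scaling. With library size alone in place of TMM, the usual edgeR scaling, 7 genes were lower and 3 were higher, Ubtf, Npm1 and Wdr12, at a median of -0.17, while the median of all genes moved by 0.31 on the log2 scale. Against that all-gene median the 40 genes stood at -0.391 with library size and at -0.394 with TMM. A change of scaling shifts every gene by nearly the same amount, so this likeness was fixed in advance and is no check of the calls. Without replicate 2 of each group 16 genes were lower, and without replicate 3 Wdr12 was higher (0.86). A change of binding common to most transcripts would be seen with neither scaling.

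The 7 genes lower in all 11 settings tried were Tcof1, Nop56, Nop58, Nolc1, Ddx21, Rrp1b and Ddx18. Rrp1b had the largest fall. Its log2 IP/Input between libraries of the same number was 0.96, 1.06 and 1.14 in Ctrl and 0.090, 0.18 and 0.23 in IR, with no overlap, and the interaction was -0.89 ± 0.10 (SE), adjusted p = 3.09e-06. In CPM its IPs went from 114, 112 and 118 to 39.2, 40.7 and 45.8. Nop56 had log2 IP/Input of 1.08, 1.21 and 1.14 in Ctrl and 0.31, 0.23 and 0.27 in IR (-0.87 ± 0.064 (SE), adjusted p = 5.22e-09). Nop58 had 1.25, 1.41 and 1.46 in Ctrl and 0.38, 0.65 and 0.62 in IR (-0.82 ± 0.082 (SE), adjusted p = 3.63e-07). Every IR value of both box C/D proteins was below every Ctrl value. The other 4 had interactions of -0.56 (Tcof1), -0.67 (Nolc1), -0.59 (Ddx21, an RNA helicase of the nucleolus) and -0.69 (Ddx18).

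Wdr75 (-0.73 ± 0.20 (SE), adjusted p = 0.0141) and Rrn3 (-0.66 ± 0.17 (SE), adjusted p = 0.00866) also fell, both having been depleted in Ctrl. The interaction of Myc was 0.0014 ± 0.13 (SE), and Myc did not pass the test. Wdr12 and Noc3l, depleted in Ctrl, had positive values of 0.48 and 0.27 that did not pass it either (adjusted p = 0.174 and 0.622). In the irradiated IPs 51.4% of reads fell on no gene, against 42.3% in the Ctrl IPs, 24.7% in the IR Inputs and 27.0% in the Ctrl Inputs. The share is of reads counted on a gene, ambiguous between genes or on none. The part of this share in the interaction was not tested.

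In the YTHDF2 IPs, ribosome biogenesis transcripts made up a smaller share of the recovered RNA after IR. The 40 genes made up 0.514% ± 0.0035 (SD, n = 3) of all IP counts in Ctrl and 0.336% ± 0.0052 after IR. Between these IPs 31 of the 40 were lower in IR and 1, Npm1, was higher, whereas 9.85% of the 19255 genes tested were lower and 6.12% higher. The median log2 fold change was -0.77, beside 0.062 over all genes tested. The same Ctrl and IR libraries enter this comparison and the interaction.

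Nolc1 fell most, from 265, 290.5 and 313 CPM in the Ctrl IPs to 93.1, 102 and 104 CPM in the IR IPs, 2.88-fold lower (-1.53 ± 0.073 (SE), adjusted p = 5.65e-10). Dkc1 went from 175, 169 and 166 to 53.4, 61.8 and 60.6 CPM (-1.53 ± 0.078 (SE), adjusted p = 1.13e-09). Nop58 went from 367, 382 and 386 to 124, 133 and 141 CPM (-1.51 ± 0.061 (SE), adjusted p = 9.10e-11). For each of the 3 no IR IP reached the lowest Ctrl IP, and all 3 are snoRNP proteins. Nop56, from 550.3, 562 and 553 to 209, 192 and 207 CPM, and Rrp1b had falls of nearly the same size (-1.45 and -1.44). Myc was at 16.9, 18.4 and 16.7 CPM in the IR IPs (-1.04 ± 0.13 (SE), adjusted p = 3.07e-05), beside -1.13 in its Input.

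Npm1 rose in the IP as it had in the Input, from 141, 133 and 143 to 175, 172 and 169.7 CPM with no overlap (0.32 ± 0.064 (SE), adjusted p = 0.00254). Of the 40 genes, 28 were lower in both the Input and the IP after IR, beside 4.28% of the 15958 genes tested in both. Pes1, Rrp1 and Ddx18 were lower in the IP but did not pass the test in the Input. Utp20, Heatr1, Wdr12 and Noc3l were lower in the Input but did not pass it in the IP. Of the 10 proliferation markers 6 were lower in the IR IP, beside 9.85% of all genes tested. Their median log2 fold change was -0.48, with Mki67 the lowest at -1.48. Their sum was 2333 to 2376 CPM in the Ctrl IPs and 1109 to 1158 CPM in those of IR. Their part in the IP result was not tested.

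Set side by side over the 4 groups (mean ± SD, n = 3), further genes differed in abundance and in IP recovery. Gnl3 (nucleostemin), a GTP-binding nucleolar protein of large-subunit assembly, stood at 83.5 ± 2.77 CPM in the Ctrl Input, 51.6 ± 2.50 in the IR Input, 102 ± 8.12 in the Ctrl IP and 44.1 ± 1.91 in the IR IP. Nat10 stood at 54.8 ± 2.44 CPM in the Ctrl Input, 35.6 ± 1.90 in the IR Input, 64.1 ± 4.06 in the Ctrl IP and 29.1 ± 3.19 in the IR IP. Both genes were enriched in the Ctrl IP and did not pass the test for IP/Input in IR. Wdr75, a processome protein that also acts in Pol I transcription, stood at 23.1 ± 1.67 CPM in the Ctrl Input, 18.3 ± 2.37 in the IR Input, 17.9 ± 1.57 in the Ctrl IP and 8.52 ± 1.43 in the IR IP. Its IP/Input was below 0 in both conditions, with log2 values of -0.30 in Ctrl and -1.05 in IR.

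Among the scaffold genes, Ncl stood at 611 ± 25.3 CPM in the Ctrl Input, 506 ± 19.6 in the IR Input, 821 ± 29.3 in the Ctrl IP and 563 ± 5.61 in the IR IP. Ddx21 stood at 317 ± 16.2 CPM in the Ctrl Input, 256 ± 3.89 in the IR Input, 422 ± 1.32 in the Ctrl IP and 226 ± 25.1 in the IR IP. Ncl was the more abundant of these, and both fell in the Input and in the IP. Heatr1, a large processome protein, stood at 78.8 ± 2.37 CPM in the Ctrl Input, 55.4 ± 0.278 in the IR Input, 50.6 ± 1.05 in the Ctrl IP and 37.2 ± 9.50 in the IR IP, and Wdr12 at 24.8 ± 2.33 CPM in the Ctrl Input, 17.5 ± 0.112 in the IR Input, 9.91 ± 3.01 in the Ctrl IP and 9.73 ± 0.674 in the IR IP. These last genes were depleted in the IP in both conditions and fell in the Input, and neither passed the test between the IPs.

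The rest of the pathway was followed through 127 further ribosome biogenesis genes listed by function. In the Input 82 of them fell and 16 rose, beside 23.9% and 21.0% of all genes, with a median of -0.26. In the IP 52 fell and none rose, beside 9.85% and 6.12%, with a median of -0.39. Their IP/Input in Ctrl was higher for 45, a share near the 34.1% of all genes, and lower for 58, beside 34.6%. In IR it was higher for 25 and lower for 74, beside 32.1% and 30.5%. The interaction was lower for 41 and higher for 2, beside 13.9% and 6.28%. The largest Input falls were those of Mdn1, the AAA ATPase of large-subunit maturation (-1.12 ± 0.056 (SE), adjusted p = 6.23e-15), and Urb2 (-1.11 ± 0.13 (SE), adjusted p = 5.05e-08). Mdn1 was at 54.3, 53.2 and 53.3 CPM in the Ctrl Inputs and 24.97, 25.8 and 27.1 CPM in those of IR, and the groups did not overlap. The large-subunit factor Nsa2 (0.47 ± 0.034 (SE), adjusted p = 9.56e-12) and the processome factor Rrp36 (0.46 ± 0.054 (SE), adjusted p = 8.05e-08) rose.

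In the IP, Ppan went from 141, 129 and 149.7 to 54.3, 47.3 and 55.1 CPM (-1.41 ± 0.088 (SE), adjusted p = 1.09e-08), and Nifk, which binds the Ki-67 protein, from 17.8, 16.2 and 13.9 to 10.1, 5.82 and 6.28 CPM (-1.10 ± 0.23 (SE), adjusted p = 0.00355). Both had IR groups below their Ctrl groups. The highest IP/Input in the wider pathway was that of Twistnb, a Pol I subunit, at 2.45 in Ctrl and 1.61 in IR, followed by Cebpz at 2.33 and 1.41. The lowest were Pno1 (-2.87 in Ctrl and -2.87 in IR), Exosc3 in Ctrl (-1.78) and Nop10 in IR (-2.75). Nop10, the H/ACA protein that is not among the 40, and Fcf1 had the largest falls of IP/Input with IR (-1.05 ± 0.27 (SE), adjusted p = 0.00725 and -1.0 ± 0.18 (SE), adjusted p = 3.76e-04). Utp18 and Mdn1 were the 2 that rose (0.98 ± 0.27 (SE), adjusted p = 0.0118 and 0.86 ± 0.12 (SE), adjusted p = 1.75e-05). The Inputs of both genes were lower in IR. The IPs of Mdn1 did not rise, at 43.4, 40.6 and 45.7 CPM in Ctrl and 35.7, 38.2 and 40.5 CPM in IR. Those of Utp18 overlapped, at 6.97, 14.2 and 8.19 CPM in Ctrl and 15.3, 11.8 and 14.03 CPM in IR.

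**Figure D4:**
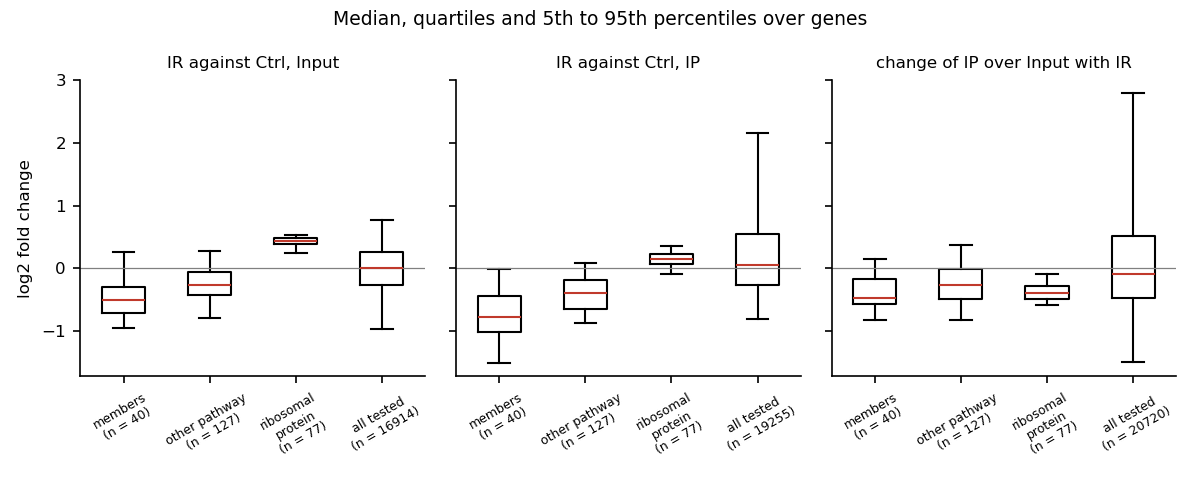
Log2 fold change (y axis) for the 40 genes, 127 other pathway genes, 77 ribosomal protein genes and all genes tested (x axis). Panels give the effect of IR on the Input, its effect on the IP and the interaction, as median, quartiles and percentiles over genes. The median of the 40 lies below that of all genes tested for the effect of IR on the Input (-0.50) and on the IP (-0.77), where the ribosomal protein genes lie above it.

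Of the 77 cytosolic ribosomal protein genes, 75 rose in the Input after IR and 1 fell. Over all genes tested 21.0% rose and 23.9% fell. The median of the 77 was 0.44. In the IP 32 rose, beside 6.12% of all genes, 2 fell, beside 9.85%, and 43 did not pass the test, with a median of 0.15. In IP/Input 74 of the 77 were depleted in Ctrl, beside 34.6% of all genes, and 75 in IR, beside 30.5%. Their interaction was lower for 63 and higher for none, beside 13.9% and 6.28% of all genes. Its median was -0.39, beside the median of -0.48 of the 40 biogenesis genes. These values are with TMM, and library size alone moved the interaction median of all genes by 0.308. With TMM, the ribosomal protein genes and the biogenesis genes mostly moved in opposite directions in the Input and in the same direction in the interaction. Many ribosomal protein genes have processed pseudogenes that can take a share of their reads.

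Of 11 genes of the Myc network, 4 rose and 2 fell in the Input, beside 21.0% and 23.9% of all genes tested. The largest rises were those of Mxd4 (0.70 ± 0.035 (SE), adjusted p = 8.61e-15) and Mxd1 (0.22 ± 0.031 (SE), adjusted p = 9.07e-07). Mxd4 was at 137, 138 and 137 CPM in the Ctrl Inputs and 226, 235 and 244 CPM in those of IR, and Mxd1 at 311, 302 and 306 and 379, 379 and 376 CPM. Both genes were higher in every IR pool than in every Ctrl pool. Mnt (-0.32) and Mga (-0.18) had the largest falls. In the IP, Mxd1 (0.36) and Mxd4 (0.36) rose and Mga (-0.43) fell.

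In log2 IP/Input, the Myc network member Mga was at 2.43 in Ctrl and 2.06 in IR, and Mycl at 1.34 and 1.0. Mlx (-1.51 and -2.01) and Mxi1 (-1.19 and -1.19) were depleted in both. With IR, the IP/Input of Mnt rose (0.61 ± 0.16 (SE), adjusted p = 0.00876), and that of Zbtb17 (-0.53 ± 0.13 (SE), adjusted p = 0.00642) and Mxd4 (-0.42 ± 0.070 (SE), adjusted p = 1.72e-04) fell.

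In features that their choice did not use, the 40 genes varied widely. Their longest annotated coding sequence ran from 459 to 8367 bases, with a median of 2006 and quartiles of 1475 and 2506 bases. Over the 13032 coding genes tested in Ctrl the median was 1383 and the quartiles were 855 and 2212 bases, and over the ribosomal protein genes the median was 468 bases. Their transcripts had 3 to 62 exons with a median of 15, beside 9, and a GC content of 51.4%, beside 50.4%. Genes enriched in the Ctrl IP had a median coding length of 2146 bases and depleted genes 1548. Across the 40 genes the Spearman correlation of coding length with log2 IP/Input in Ctrl was 0.303, and across all coding genes tested it was 0.259. In IR these were 0.405 and 0.356. The genes share their libraries and are not independent replicates, so these correlations are descriptions.

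**Figure D5:**
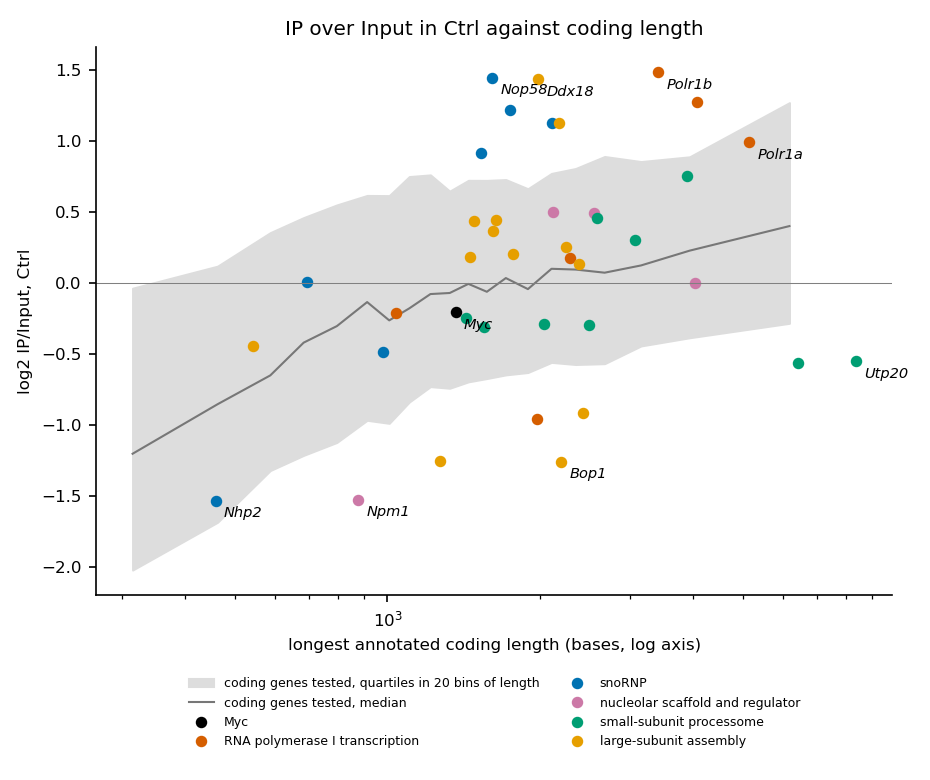
Log2 IP/Input in Ctrl (y axis) against the longest annotated coding length in bases (x axis, log scale) for the 40 genes, coloured by role, with the median and quartiles of all coding genes tested in bins of length. The binned median rises from -1.20 in the shortest bin to 0.40 in the longest, and Nhp2 and Npm1 lie low among the shorter genes.

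The m6A consensus core GGACT, read on the transcript strand of the longest transcript, was present at a median of 0.988 copies per kilobase in the 40 genes and 1.055 in all coding genes tested. The Spearman correlation of its density with log2 IP/Input in Ctrl was 0.125 over the 40 and 0.0946 over all coding genes. Of the 8 genes that hold a single copy, 4 are shown with the 10 bases on each side, in mm10 and with the motif in capitals, since they include both enriched and depleted transcripts. They are Nop56 (chr2:130277500-130277524, plus strand, coding exon), Fbl (chr7:28177203-28177227, plus strand, coding exon), Npm1 (chr11:33163127-33163151, minus strand, exon before the coding sequence) and Rrp1 (chr10:78411434-78411458, minus strand, coding exon).
Nop56: accaaaatatGGACTcatttttcat
Fbl: gccaagaagaGGACTaacattattc
Npm1: cgcggaggcaGGACTagcgcagatc
Rrp1: agtatggaaaGGACTgttttactgc

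With 1 copy each, Nop56 and Rrp1 were enriched in the Ctrl IP (1.22 and 0.43 in log2 IP/Input), and Fbl and Npm1 were depleted (-0.49 and -1.53). Whether any of these positions carries m6A was not measured in these libraries.

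Small nucleolar RNAs are annotated within 6 of the genes, 19 in all, in Nop56, Nop58, Dkc1, Ncl, Wdr43 and Gnl3. None reached a mean of 100 counts per library, and the highest mean was 4 counts, for a small nucleolar RNA gene within Dkc1. Some lie within annotated exons of Nop56, Nop58, Ncl and Gnl3 on the same strand.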

How the data were processed

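RIP-seq was analysed in 12 libraries, Input and YTHDF2 IP of 3 Ctrl and 3 IR pools, grouped by the sample labels. The values are whole-number read counts per gene, deposited by the authors without normalization. They were trimmed with Trimmomatic 0.39 and counted with HTSeq on mm10, per the labels and the study's methods, which also name HISAT and GENCODE M19. Whether counting used strand or duplicates were removed is not given in the sources used here. Lines on uncounted reads were kept out of library sizes. Reads on no gene made up 24.7% to 51.4%, in the group means, of reads counted on a gene, ambiguous between genes or on none.

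Gene symbols, coordinates and coding lengths came from GENCODE M21 (mm10), which held 97.8% of the 54446 identifiers in the same version and 99.9% in any version. Promoter windows were RefSeq (GRCm38.p6), 250 bases before to 50 after the start. The genes and lists were chosen with earlier results of these data known.

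A gene was tested where 3 or more libraries of the comparison had 10 or more counts, with edgeR 4.0.16 in R 4.3.3 (TMM, quasi-likelihood test). P-values were adjusted over all genes tested (Benjamini-Hochberg) and called under 0.05, and the SE is the absolute log2 fold change over the square root of F. The comparisons were IP against Input in Ctrl and in IR, their interaction over 12 libraries, and the effect of IR on the Input and on the IP. The log2 IP/Input given per replicate sets libraries of the same number against each other and had 2 counts added as a prior. An exact permutation test of 3 against 3 cannot go below p = 0.1 and was not used. The steps were tested on simulated counts.

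Values per library were given for Myc, for the gene of each role with the highest Input level per kilobase, and per comparison for the 3 largest rises and falls among called genes whose groups did not overlap. For the 127 other pathway genes and the Myc network the 2 largest were named. Alternatives were DESeq2 1.42.0, its size factors, library size alone, no filter, at least 10 counts in every library, nuclear protein-coding genes alone, all 12 libraries in one fit, the replicate number as a block, and each replicate left out. Replicates of each group differed by more than counting noise.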

Additional observations from a re-analysis of the deposited data

Results flagged for a closer look

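The log2 IP/Input of 25 of the 40 genes differed between IR and Ctrl, and was lower in IR in each. The test was of the difference itself, the interaction over 12 libraries (edgeR quasi-likelihood test, adjusted over all genes tested). By the same test 13.9% of the 20720 genes tested were lower and 6.28% higher. Of the 77 cytosolic ribosomal protein genes 63 were lower. Among the 40, the genes called in the Pol I group were Polr1a (-0.58), Polr1b (-0.48), Rrn3 (-0.66) and Tcof1 (-0.56). Among snoRNP proteins they were Nop56 (-0.87), Nop58 (-0.82), Fbl (-0.43), Dkc1 (-0.48), Gar1 (-0.52) and Nolc1 (-0.67). The scaffold genes were Ncl (-0.27), Mybbp1a (-0.41) and Ddx21 (-0.59), and the processome genes Nop14 (-0.37), Wdr75 (-0.73), Noc4l (-0.51) and Nat10 (-0.52). Large-subunit factors were Nop16 (-0.60), Pes1 (-0.55), Rrp1 (-0.51), Rrp1b (-0.89), Noc2l (-0.51), Gnl3 (-0.51), Ddx18 (-0.69) and Ddx56 (-0.48). Several of these calls were lost in most of the 11 settings, Gar1, Nop14 and Ddx56 being called in 3, Polr1b in 4 and Noc4l in 5. With library size as the scaling, 7 of the 25 kept the call and Ncl had a positive value (0.040).

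In the wider pathway the same test gave a higher IP/Input in IR for Utp18 (0.98) and Mdn1 (0.86) and a lower one for Nop10 (-1.05) and Fcf1 (-1.0). In the Myc network it was higher for Mnt (0.61) and lower for Zbtb17 (-0.53) and Mxd4 (-0.42).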

How the results depend on the processing

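The count of genes called in each direction stayed within 1.5 times of the main count in every alternative, except for the interaction. There, library size alone gave 3 higher and 7 lower, and leaving out each replicate in turn gave 0 to 1 higher and 16 to 19 lower.

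Medians over the 40 genes moved as follows, on the log2 scale. For IP/Input in Ctrl (0.18), library size alone gave -0.0061, no filter on low counts 0.065, nuclear protein-coding genes 0.28, and all 12 libraries in one fit 0.10. For IP/Input in IR (-0.23), library size gave -0.088, no filter -0.37, at least 10 counts in every library -0.11, nuclear protein-coding genes -0.099, and leaving out a replicate -0.11 to -0.18. For the interaction (-0.48), library size gave -0.17, DESeq2's size factors -0.42, DESeq2 -0.42, at least 10 counts in every library -0.37, nuclear protein-coding genes -0.40, and leaving out a replicate -0.37 to -0.42. In the Input (-0.50), library size gave -0.52, all 12 libraries in one fit -0.42, and leaving out a replicate -0.47 to -0.52. In the IP (-0.77), library size gave -0.57, no filter -0.81, at least 10 counts in every library -0.72, and leaving out a replicate -0.74 to -0.80. The cause was not tested.

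Library size alone moved the median of all genes by -0.184 for IP/Input in Ctrl, 0.147 in IR, 0.308 for the interaction and 0.202 for IR in the IP. Relative to the median of all genes, the 40 stood at 0.161 in Ctrl IP/Input with TMM and 0.16 with library size, and at -0.428 with no filter. The likeness of the values with TMM and with library size was fixed in advance, since a change of scaling shifts every gene nearly alike. Single genes turned direction with library size alone, Ubtf (-0.0089) and Mybbp1a (-0.18) in Ctrl IP/Input and Ncl (0.040) and Npm1 (0.26) in the interaction. The sources used here do not say that the same replicate number marks the same pool in IP and Input, and Ctrl and IR pools are other mice. Deviations from the group means correlated at -0.019 to 0.015 between IP and Input of the same number. The replicate block gave 20 higher and 14 lower in Ctrl, 11 and 19 in IR, 0 and 23 for the interaction, 3 and 32 in the Input and 1 and 33 in the IP.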

Other observations

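Ratios of raw counts of partner genes within a library do not depend on the scaling. The pairs were chosen after their values were seen, and the ratios are given with no test. The ratio of Nop56 to Fbl counts was 2.21 ± 0.17 (SD, n = 3) in the Ctrl Inputs and 1.34 ± 0.033 in those of IR. In the IPs it was 7.23 ± 0.65 in Ctrl and 3.23 ± 0.13 in IR. The ratio of Dkc1 to Nhp2 was 0.629 ± 0.037 in the Ctrl Inputs and 0.292 ± 0.016 after IR, and in the IPs 3.46 ± 0.38 and 1.43 ± 0.37. The ratio of Polr1b to Polr1c was 0.820 ± 0.040 in the Ctrl Inputs and 0.426 ± 0.019 after IR. The ratio of Ncl to Npm1 was 1.45 ± 0.043 and 0.932 ± 0.034 in the same libraries, and that of Bop1 to Pes1 was 0.379 ± 0.0067 and 0.232 ± 0.024. In each of these pairs the Ctrl Inputs lay above the IR Inputs. In the IPs the ratio was 2.69 ± 0.34 in Ctrl and 1.40 ± 0.44 in IR for Polr1b to Polr1c, 5.91 ± 0.30 and 3.27 ± 0.051 for Ncl to Npm1, and 0.138 ± 0.010 and 0.118 ± 0.042 for Bop1 to Pes1, whose groups overlapped. The ratio of Wdr12 to Pes1 was 0.304 ± 0.034 in the Ctrl Inputs and 0.213 ± 0.0022 after IR. In the IPs it was 0.111 ± 0.032 in Ctrl and 0.159 ± 0.022 in IR, and these groups overlapped too.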
